A study of Mus musculus with 9 samples.

Results

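Hox genes were read out in 9 RNA sequencing libraries of mouse embryonic stem cells in which the β-catenin gene is labelled as knocked out. The members were all rows of the raw count table whose symbol is Hox, a cluster letter from a to d and a number, which gave 39 of 52264 rows. All libraries are labelled β-catenin-/-, and the cells had been grown on feeder-treated dishes, with naive-state expansion in 3 µM CHIR-99021, 1 µM PD03 (a MEK inhibitor) and 40 ng/ml LIF. The medium was N2B27 overnight, and 3 libraries each then came from untreated Control cells, cells given BRD0705 (an inhibitor selective for GSK3α) and cells given CHIR (CHIR-99021, which inhibits GSK3α and GSK3β), all for 30 min. The labels give no dose for these 30 min, no age or sex of the line, no wild-type library, no number of clones and no statement that replicates were separate cultures, so p-values measure the spread between these libraries, which may be technical. They also do not name the feeder cells. The libraries had 17359422 to 20773337 counts each. Ctnnb1, the gene of β-catenin, was at 303 to 371 CPM in every library, and with no wild-type library and no deleted exons named, gene-level counts do not check the knockout.

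Hox genes encode homeodomain transcription factors that set position along the head-to-tail axis of the embryo and along the limbs. In mammals they lie in 4 clusters, and genes of the same number (a paralog group) descend from one ancestral gene. Genes at the 3′ end of a cluster have low numbers and act towards the head, and genes at the 5′ end have high numbers and act towards the tail and the limb tips. In pluripotent stem cells Polycomb proteins keep the clusters largely silent, while fibroblasts, the usual feeder cells, keep the Hox pattern of the body site they came from. Col1a1, which encodes the main chain of type I collagen, is a standard fibroblast marker, and the question was whether Hox counts followed it across libraries and whether they differed between treatments.

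On mm10, the build named in the submitters' processing notes, the Hoxa cluster (11 genes) lies on chromosome 6. The Hoxb cluster (10 genes) spans chromosome 11 from 96194316 to 96368254. The Hoxc cluster (9 genes) spans chromosome 15 from 102921131 to 103036856, and the Hoxd cluster (9 genes) spans chromosome 2 from 74668225 to 74765142. These positions are RefSeq's for GRCm38.p6, which is mm10. Hox genes share one conserved stretch, the homeobox, and the lines here show how alike the members are where a short read could be shared between them. The same window of 52 bases of the homeobox, from GENCODE vM39 transcripts, follows for the members described most here and for Hoxd13, 5′ to 3′ on the coding strand, with capitals for bases that differ from Hoxc6.
Hoxc6: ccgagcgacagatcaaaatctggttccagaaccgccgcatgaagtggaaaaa
Hoxb9: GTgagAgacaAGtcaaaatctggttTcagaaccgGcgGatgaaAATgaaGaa
Hoxc8: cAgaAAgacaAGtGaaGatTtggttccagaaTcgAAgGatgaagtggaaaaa
Hoxc4: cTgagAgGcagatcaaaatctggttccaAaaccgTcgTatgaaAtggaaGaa
Hoxc10: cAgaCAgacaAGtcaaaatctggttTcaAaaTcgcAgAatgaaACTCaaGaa
Hoxd13: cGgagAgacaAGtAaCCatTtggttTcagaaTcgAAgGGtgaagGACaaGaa

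Of the 52 bases, 44 were the same in Hoxc4 as in Hoxc6, 40 in Hoxb9 and in Hoxc8, 37 in Hoxc10 and 34 in Hoxd13. Windows of 50 bases that occur in full in a Hox gene of another cluster made up at most 0.364% of any member's exons. Within a cluster the overlap was larger for a few members, because annotated exons overlap on the same strand. This holds for 52.0% of the exon bases of Hoxd4 and 38.2% of those of Hoxd3, which share exons with each other and with Gm28230. Hoxc10 and Hoxc5 share 166 exon bases, which is 8.11% of Hoxc10. Counts of these genes are therefore uncertain. Opposite-strand transcripts cover part of others, such as Hoxb3 (2647 bases, Hoxb3os) and Hoxa11 (1010 bases, Hoxa11os), and the use of strand in the counting is not given in the sources used here.

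Hox reads were few. The 39 members together had 7139 counts over the 9 libraries, from 689 to 966 per library, while Col1a1 alone had 276676. Each library had reads from 35 to 37 members. The Hoxc cluster held 38.7% of the Hox counts, Hoxb 25.5%, Hoxa 22.6% and Hoxd 13.2%. Paralog groups 4 to 8 held 43.9%, groups 9 to 13 42.9% and groups 1 to 3 13.3%. Reads thus came from all 4 clusters and from the middle and 5′ groups more than from the 3′ groups, although groups 1 to 3 also have fewer members (8, against 15 and 16).

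A filter on low counts, which asks for about 10 counts in at least 3 libraries, left 28 Hox genes for testing among 15366 genes. The other 11 members had totals over the 9 libraries of 71 counts for Hoxb8, 70 for Hoxb13, 43 for Hoxd10, 33 for Hoxd12, 31 for Hoxd4, 14 each for Hoxa2 and Hoxd3, 10 for Hoxc11, 5 for Hoxa6, 4 for Hoxc12 and 1 for Hoxb1. Hoxb1, an early hindbrain gene, was at 0 in 8 of the 9 libraries. A count of 0 allows up to 3 counts, which is 0.142 to 0.171 CPM depending on the library (counting error only). CPM are counts scaled to a common library size after TMM, edgeR's correction for differences between libraries. Hoxa5 passed the filter without any Control library reaching the required level (2 BRD0705 libraries and 1 CHIR library did), so its high fold change is partly fixed by the filter.

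Per kb of exon, which allows levels to be compared between genes, Hoxc6 stood first with a mean of 1.94 CPM per kb over the 9 libraries. Among the others, Hoxb9 was at 1.45, Hoxc10 at 1.08, Hoxc4 at 0.871 and Hoxc8 at 0.791 CPM per kb. Hoxc6 and Hoxc8 pattern the thoracic region, Hoxb9 the thoracic and lumbar region, Hoxc10 the lumbar region and hindlimb, and Hoxc4 the neck. Neighbours within a cluster differed widely: Hoxc5 had 0.200 CPM per kb between Hoxc4 and Hoxc6, and Hoxb8 had 0.153 CPM per kb beside Hoxb9. No cluster showed a steady rise or fall of levels from one end to the other.

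**Figure D1:**
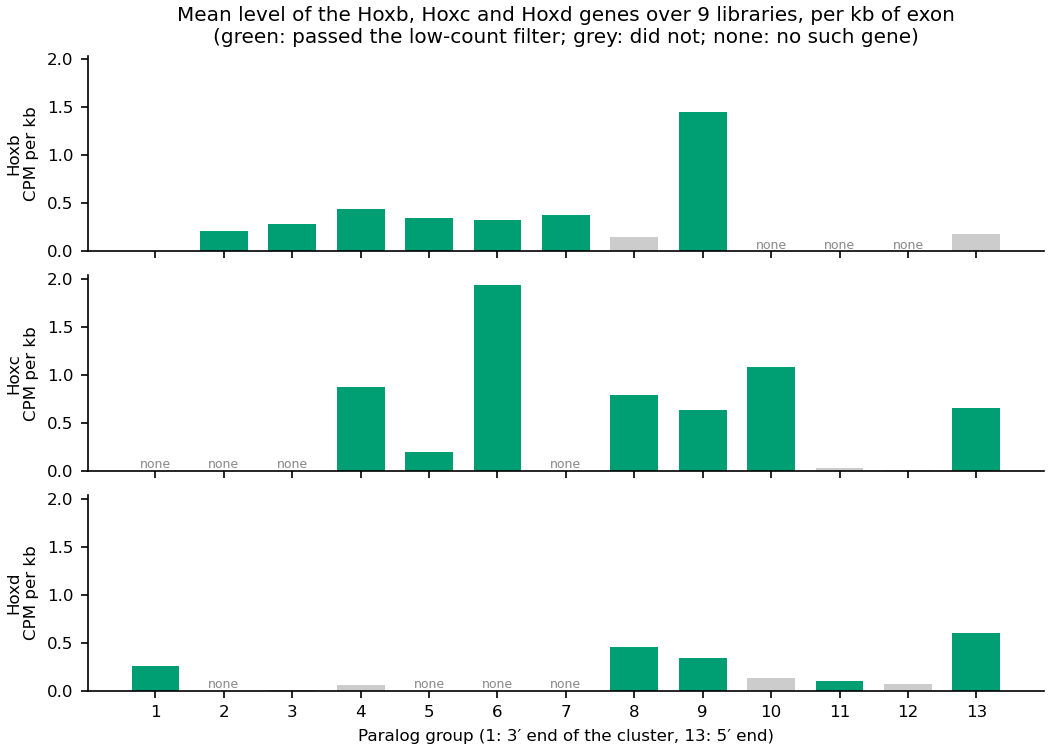
Mean level of the Hoxb, Hoxc and Hoxd genes over the 9 libraries in CPM per kb of exon (bar height), in 3 panels for the clusters, against paralog group number. Green bars are genes that passed the low-count filter and grey bars genes that did not; Hoxc6 (1.94) and Hoxb9 (1.45) are the tallest bars, and levels neither rise nor fall steadily along these clusters.

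Summed over all 39 members, Hox reads were at 39.5, 38.4 and 37.5 CPM in Control replicates 1 to 3. They were at 44.8, 44.8 and 45.9 CPM with BRD0705 and at 37.7, 41.02 and 37.7 CPM with CHIR. The 3 BRD0705 libraries lay above all 6 others, while Control and CHIR overlapped. The group means were 38.5 ± 0.970, 45.2 ± 0.604 and 38.8 ± 1.92 CPM (SD, n = 3 each), a ratio of 1.17 for BRD0705 over Control, 1.01 for CHIR over Control and 1.16 for BRD0705 over CHIR. No p-value was computed for a sum over chosen members. Exact 95% Poisson intervals for single libraries cover counting error only. That of Control replicate 1 (36.8 to 42.3 CPM) overlapped those of BRD0705 replicate 2 (41.8 to 48.1 CPM) and replicate 1, but not replicate 3 (from 43.0 CPM). Those of Control replicates 2 and 3 ended at 41.2 and 40.3 CPM, below all BRD0705 intervals. Among CHIR libraries, replicates 1 and 3 ended below them (40.5 and 40.6 CPM). CHIR replicate 2, up to 44.1 CPM, overlapped every BRD0705 interval. In bulk RNA, fewer cells of a type and less RNA per cell cannot be told apart.

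Every cluster had a higher mean sum with BRD0705 than in Control. The ratio of group means, BRD0705 over Control, was 1.24 for the Hoxc cluster, 1.20 for Hoxb, 1.12 for Hoxd and 1.07 for Hoxa. By paralog group it was 1.08 for groups 1 to 3, 1.16 for groups 4 to 8 and 1.22 for groups 9 to 13. The sums of groups 9 to 13 ran from 16.02 to 16.9 CPM in Control and from 19.4 to 20.2 CPM with BRD0705, and those of groups 4 to 8 from 16.3 to 17.5 CPM and from 19.5 to 19.9 CPM, without overlap. The Hoxc sums were 14.4, 14.8 and 14.9 CPM in Control libraries, 17.5, 19.5 and 17.5 CPM in BRD0705 libraries and 15.05, 14.04 and 14.65 CPM in CHIR libraries. For Hoxc the BRD0705 libraries again lay above the other 6. In the Hoxa, Hoxb and Hoxd clusters the BRD0705 sums overlapped both the Control and the CHIR sums. Without Hoxc6, the member with the most counts, the ratio of all the others was 1.15.

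**Figure D2:**
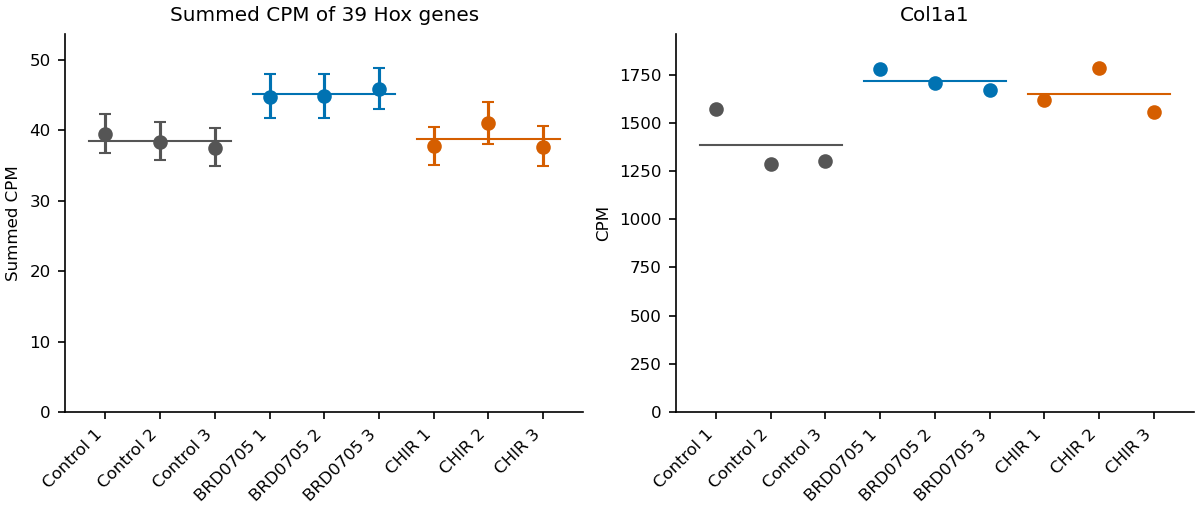
Left, summed CPM of the 39 Hox genes in each library with exact 95% Poisson intervals (counting error only); right, Col1a1 CPM in the same libraries; horizontal lines are group means (n = 3). The BRD0705 libraries have the highest Hox sums (44.8 to 45.9 CPM), while for Col1a1 the BRD0705 and CHIR libraries overlap.

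The first comparison, BRD0705 against Control, asked what 30 min of GSK3α inhibition did to transcript levels. Of the 28 tested Hox genes, 0 passed an adjusted p of 0.05 by edgeR (quasi-likelihood test, Benjamini-Hochberg adjusted across all tested genes), where 1.22% of all tested genes passed. At an unadjusted p under 0.05 there were 4 Hox genes (Hoxc6, Hoxc10, Hoxb9 and Hoxc13), against 15.9% of all tested genes. The count was also 0 with limma voom, and DESeq2 gave no adjusted p (NA) for all 28. The fold change was above 0 in 19 of the 28, as in 49% of all tested genes, and the median log2 fold change was 0.25, against -0.0038 for all tested genes. The median standard error of a Hox gene was 0.30 on the log2 scale, against 0.09 for all tested genes, so changes of the size of the sum's could not be resolved gene by gene.

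Hoxc6 (chromosome 15, 102998226 to 103011882, mm10) had 4.54, 4.17 and 4.29 CPM in Control libraries, 6.15, 5.97 and 5.22 CPM in BRD0705 libraries and 5.23, 4.29 and 4.15 CPM in CHIR libraries. All BRD0705 libraries were above all Control libraries, and the lowest of them was level with CHIR replicate 1. Its log2 fold change with BRD0705 was 0.41 ± 0.14 (SE), with an adjusted p of 0.156 by edgeR's quasi-likelihood test (95% interval 0.12 to 0.71). Hoxb9 had 4.09, 3.68 and 2.96 CPM in Control libraries, 4.39, 4.27 and 5.18 CPM in BRD0705 libraries and 3.74, 4.07 and 3.01 CPM in CHIR libraries. For Hoxb9 the BRD0705 libraries lay above the other 6, and the log2 fold change against Control was 0.37 ± 0.17 (SE; edgeR adjusted p 0.293).

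Hoxc10 had 1.97, 1.26 and 2.12 CPM in Control libraries, 2.84, 2.79 and 2.23 CPM in BRD0705 libraries and 2.14, 2.53 and 2.08 CPM in CHIR libraries. Its BRD0705 libraries exceeded every Control library and overlapped the CHIR libraries, with a log2 fold change against Control of 0.55 ± 0.22 (SE; edgeR adjusted p 0.224). Hoxc13, which acts in hair and tail tip, had 1.28, 1.36 and 1.48 CPM in Control libraries, 1.55, 2.22 and 1.99 CPM in BRD0705 libraries and 1.64, 1.49 and 1.53 CPM in CHIR libraries. Both inhibitor groups were above every Control library for Hoxc13, with log2 fold changes of 0.48 ± 0.22 for BRD0705 and 0.18 ± 0.23 for CHIR (SE; edgeR adjusted p 0.299 and 0.730).

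Other abundant members showed no separation between Control and BRD0705. Hoxc8 had 2.17, 2.52 and 2.07 CPM in Control libraries, 2.19, 2.73 and 2.66 CPM in BRD0705 libraries and 3.44, 1.71 and 2.02 CPM in CHIR libraries, where 1 library was the highest and another the lowest of all 9. Hoxc4 had 1.82, 2.47 and 2.41 CPM in Control libraries, 2.35, 3.30 and 2.37 CPM in BRD0705 libraries and 1.35, 1.76 and 2.296 CPM in CHIR libraries. Hoxc9, a thoracic gene, had 1.97, 1.79 and 1.92 CPM in Control libraries, 1.82, 1.71 and 2.52 CPM in BRD0705 libraries and 0.847, 1.38 and 1.97 CPM in CHIR libraries. In Hoxc9 and Hoxc4 the lowest values were CHIR replicates 1 and 2.

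Hoxa7, a thoracic gene, had 1.38, 1.26 and 2.17 CPM in Control libraries, 1.605, 1.54 and 1.33 CPM in BRD0705 libraries and 1.30, 2.04 and 1.31 CPM in CHIR libraries. Hoxd13, which patterns the digits, had 1.33, 1.45 and 1.77 CPM in Control libraries, 1.34, 1.37 and 1.52 CPM in BRD0705 libraries and 1.495, 1.32 and 1.91 CPM in CHIR libraries. These 2 genes overlapped fully between the groups. Hoxb3, a hindbrain gene, had 1.28, 1.55 and 0.986 CPM in Control libraries, 1.71, 1.14 and 2.09 CPM in BRD0705 libraries and 1.25, 2.09 and 1.15 CPM in CHIR libraries. Hoxd8, a trunk gene, had 1.18, 1.36 and 1.08 CPM in Control libraries, 0.909, 1.48 and 1.76 CPM in BRD0705 libraries and 1.89, 1.32 and 0.984 CPM in CHIR libraries. For both, the spread within each inhibitor group was as wide as the whole Control range or wider.

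**Figure D3:**
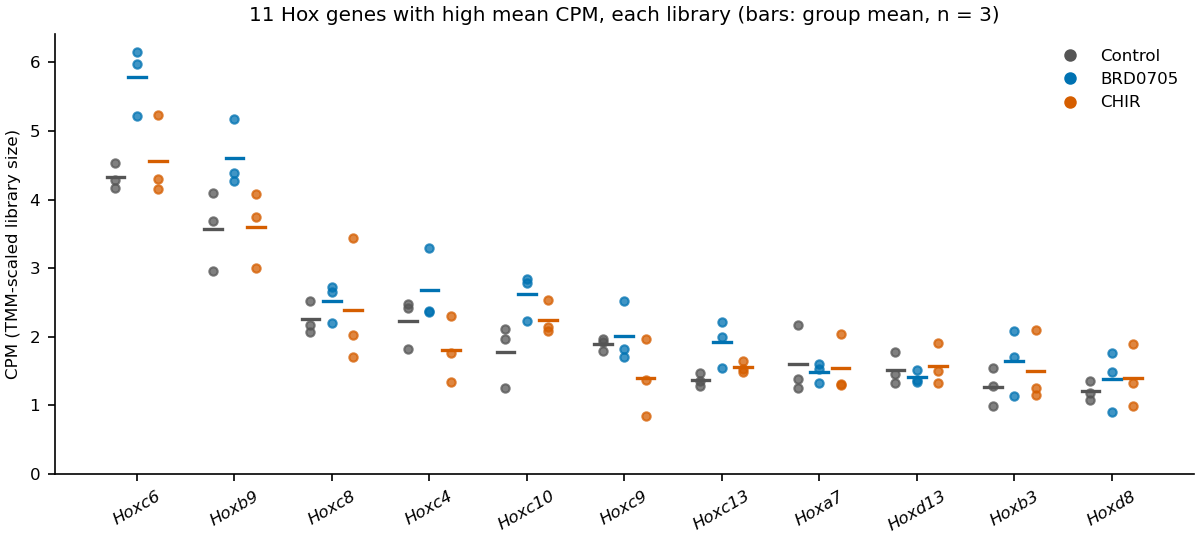
CPM (linear axis from 0) of 11 tested Hox genes with high mean CPM, one point per library and a bar at each group mean (n = 3); genes of different length are not comparable in height. Hoxb9 is the gene here whose BRD0705 libraries all lie above the other 6, and most other genes overlap between groups.

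Across the 28 tested members, CPM of Control and BRD0705 did not overlap in 7. The BRD0705 libraries were higher in 6 (Hoxa5, Hoxb9, Hoxc10, Hoxc13, Hoxc6 and Hoxd9), where 9.83% of all tested genes were, and lower in 1 (Hoxc5), where 10.4% of all tested genes were. Hoxd9 had 0.493, 0.775 and 0.690 CPM in Control libraries against 1.28, 0.910 and 0.807 CPM in BRD0705 libraries, a log2 fold change of 0.61 ± 0.35 (SE; edgeR adjusted p 0.434). Hoxa5 had 0.246, 0.242 and 0.246 CPM in Control libraries against 0.642, 0.398 and 0.522 CPM in BRD0705 libraries, a log2 fold change of 1.07 ± 0.52 (SE; edgeR adjusted p 0.323). It passed the filter only through inhibitor libraries, so its place among the 6 and its fold change are partly fixed by the filter. Hoxc5 had 0.592, 1.07 and 0.641 CPM in Control libraries against 0.588, 0.569 and 0.427 CPM in BRD0705 libraries. It had the lowest fitted fold change of the 28, -0.54 ± 0.38 (SE; edgeR adjusted p 0.524). The rest of the 28 ranged in this contrast from -0.32 (Hoxb7) to 0.63 (Hoxd1) on the log2 scale.

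The second, CHIR against Control, asked the same for inhibition of both GSK3 enzymes. Again 0 of the 28 Hox genes were called by the same edgeR test, where 6.3% of all tested genes were (2.52% higher and 3.78% lower). The unadjusted p was under 0.05 in 0 of them, against 20.5% of all tested genes. With limma voom it was 0, and with DESeq2 0 of the 14 that received an adjusted p. The median log2 fold change was 0.07, and 16 of 28 were above 0, against 47.6% of all tested genes. Only Hoxc13 had CHIR libraries all above Control (10.9% of all tested genes did), and no Hox gene had them all below (14.1% of all tested genes did). For Hoxc6 the log2 fold change was 0.08 with a 95% interval of -0.23 to 0.39, and for Hoxb9 0.01 with an interval of -0.35 to 0.38, so changes beyond these bounds are outside the intervals and smaller ones are not resolved. The comparisons against Control share the same 3 Control libraries.

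**Figure D4:**
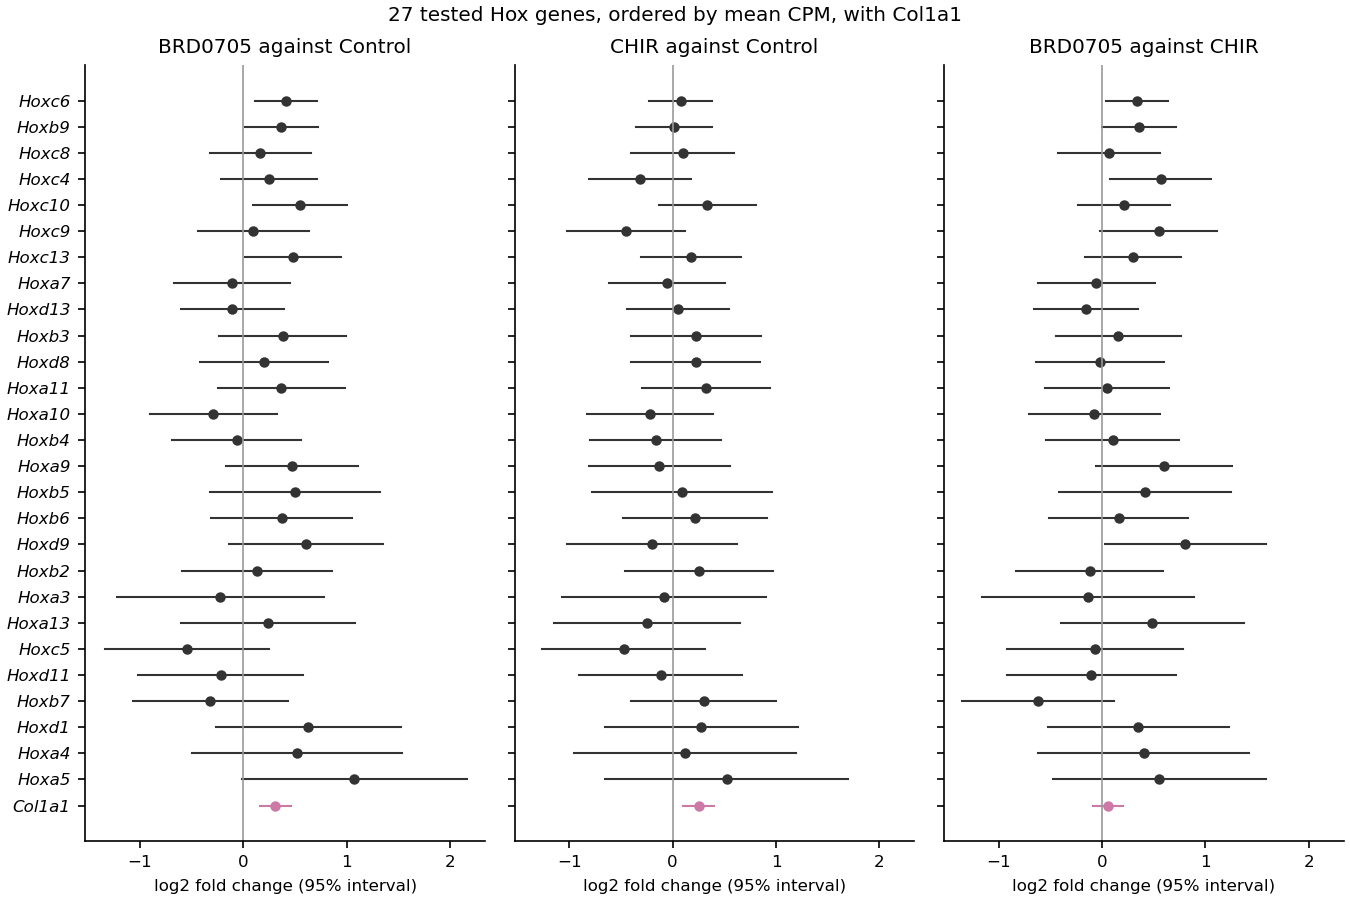
Log2 fold changes (points) with 95% intervals (lines) for 27 of the 28 tested Hox genes, ordered from high to low mean CPM, and for Col1a1 at the bottom, in the 3 comparisons. No Hox gene passed the adjusted threshold in any of them, and the intervals widen from Hoxc6 at the top to Hoxa5 near the bottom.

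The inhibitors were also compared directly with each other. By edgeR 0 of the 28 Hox genes were called, where 7.77% of all tested genes were (4.8% higher with BRD0705 and 2.97% lower). The unadjusted p was under 0.05 in 4 (Hoxc4, Hoxc6, Hoxd9 and Hoxb9), against 22.5% of all tested genes. With limma voom 0 passed, and with DESeq2 0 of the 15 that received an adjusted p. The median log2 fold change of BRD0705 over CHIR was 0.16, and 18 of 28 were above 0, against 50.8% of all tested genes. Hoxc4 was higher with BRD0705 by 0.57 ± 0.23 log2 units (SE; edgeR adjusted p 0.15), Hoxc6 by 0.34 ± 0.14 (edgeR adjusted p 0.166) and Hoxd9 by 0.81 ± 0.37 (edgeR adjusted p 0.202). The CPM of the inhibitor groups did not overlap in Hoxb9 and Hoxc4, which were higher with BRD0705 (13.7% of all tested genes were), and in Hoxb7, which was lower (12.9% of all tested genes were). Hoxb7 had 0.428, 0.455 and 0.522 CPM with BRD0705 and 0.798, 0.771 and 0.601 CPM with CHIR, with a log2 fold change of -0.62 ± 0.35 (SE; edgeR adjusted p 0.315).

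Spread between replicates of a Hox gene was set against counting error. The chi-square per degree of freedom within groups, which is 1 for pure counting error, had a median of 1.45 over the 28 tested Hox genes and of 1.35 over the 4614 other tested genes in the same CPM range (0.374 to 4.89 CPM). For the summed Hox counts it was 0.802. For Col1a1 it was 192, and its median over the tested fibroblast markers was 10.2. This measure grows with the count, so it sets each gene against its own counting error and does not compare relative spread between genes.

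Fibroblast markers were read in every library, at mean levels from 1586 CPM for Col1a1 down to 0.312 CPM for Fap, which was not tested. Lum, Twist1 and Pdgfra were at 3.06, 3.13 and 4.79 CPM on average. Col1a1 had 1574, 1287 and 1302 CPM in Control libraries, 1781, 1706 and 1672 CPM in BRD0705 libraries and 1617, 1785 and 1555 CPM in CHIR libraries. Its log2 fold change was 0.31 ± 0.07 for BRD0705 and 0.25 ± 0.07 for CHIR (SE; edgeR adjusted p 0.0405 and 0.0407), and 0.06 ± 0.07 between the inhibitors (edgeR adjusted p 0.687). Both calls were lost when any 1 of 4 libraries was left out (Control replicates 2 and 3, and replicates 1 and 2 of the inhibitor), with log2 fold changes that stayed above 0 (0.27 to 0.41 and 0.20 to 0.36). Of the 20 fibroblast markers, 19 were tested, none was at 0, and their summed level was 3335 to 3867 CPM in Control, 4198 to 4263 CPM with BRD0705 and 3660 to 4498 CPM with CHIR. Under each inhibitor 3 passed against Control, all higher (Col1a1, Col5a1 and Lox, genes of fibrillar collagen and of the enzyme that crosslinks it), where 0.69% of all tested genes were called higher with BRD0705 and 2.52% with CHIR. Between the inhibitors 1 marker passed, Pdgfra (also on the endoderm list), higher with BRD0705 by 0.53 ± 0.14 log2 units (SE; edgeR adjusted p 0.0299). The stem cell markers were present too, with Esrrb at 949 and Pou5f1 at 918 CPM on average and a summed level of the 10 markers of 4196 to 4577 CPM.

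By Col1a1 the group mean was lowest in Control and highest with BRD0705, and CHIR lay nearer to BRD0705. By the Hox sum the mean was highest with BRD0705. Control and CHIR were level within their spread there (38.5 ± 0.970 and 38.8 ± 1.92 CPM, SD), and their order changed with the processing. The 3 highest Hox sums were those of the BRD0705 libraries, and the CHIR sums overlapped Control. For Col1a1 both inhibitor means were above Control. By single libraries CHIR overlapped Control here too, with CHIR replicate 3 (1555 CPM) below Control replicate 1 (1574 CPM). Per 1000 counts of Col1a1 there were 25.1, 29.9 and 28.8 Hox counts in Control, 25.2, 26.3 and 27.4 with BRD0705, and 23.3, 23.0 and 24.2 with CHIR. The CHIR libraries had the 3 lowest values, and Control and BRD0705 overlapped. This difference in the ratio was not tested.

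Across the 9 libraries, as a description over libraries that share their treatment groups, the Hox sum and Col1a1 had a Pearson r of 0.67 and a Spearman rho of 0.70. Leaving out the 2 libraries farthest from the median of Col1a1 (Control replicates 2 and 3) gave an r of 0.65, and deviations from the group means gave 0.72. With Col1a2 in place of Col1a1 the r was 0.43, 0.15 without those 2 libraries and 0.66 in deviations from the group means. With Col3a1 it was 0.23, 0.66 without CHIR replicates 1 and 2 and 0.55 in deviations. With the fibroblast score, which is the mean log2 CPM of the tested list, r was 0.62 and rho 0.48 (r 0.48 without Control replicate 2 and CHIR replicate 3, and 0.61 in deviations). The 19 tested fibroblast markers had a median r of 0.55 with the log2 Hox sum, and 17 of them were above 0, against a median of 0.01 and 51.1% above 0 for all other tested genes. Pdgfra (0.73), Tagln (0.70), Col5a1 (0.70) and Pdgfrb (0.69) had the highest r of the list, and Prrx1 (-0.10) and Twist1 (-0.08) were below 0. The 10 stem cell markers had a median r of -0.23. Of the other lists, the medians were 0.64 for the 3 tested caudal regulators, 0.50 for the 5 endoderm genes (Pdgfra among them) and 0.44 for the 4 mesoderm genes. They were 0.40 for the 14 limb and trunk position genes and 0.40 for the 9 Trithorax genes. Lower medians were those of the retinoic acid (0.34), trophoblast (0.27) and neural (0.19) genes. The cofactors of Hox proteins were at 0.03, the Polycomb genes at 0.02 and Evx1, the only tested gene of its list, at -0.50. No difference between lists was tested.

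Another property of the libraries moved with the Hox sum. The trend of counts over GC content, in log2 units per 10 percentage points of transcript GC, was 0.05, -0.07 and -0.04 in Control, 0.08, 0.02 and 0.06 with BRD0705, and -0.03, -0.04 and -0.02 with CHIR. The Hox sum had an r of 0.77 with it, 0.51 without BRD0705 replicates 1 and 3, and 0.27 in deviations from the group means. Its r with the total count was -0.34, from -0.75 to -0.077 with 1 library left out. The part of the GC trend in the Hox sum was not tested beyond the correction that follows. Tested Hox transcripts had a median GC content of 53.2%, against 49.7% for all tested genes. With GC content and length fitted and removed library by library, a correction chosen after seeing the data, the Hox sums were 38.3, 38.9 and 37.6 CPM in Control libraries, 44.7, 45.1 and 44.9 CPM in BRD0705 libraries and 37.8, 41.6 and 38.3 CPM in CHIR libraries. The BRD0705 libraries remained above the other 6, with a ratio to Control of 1.17. Under the same correction Col1a1 did not pass for BRD0705 (log2 fold change 0.22, edgeR adjusted p 0.104).

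**Figure D5:**
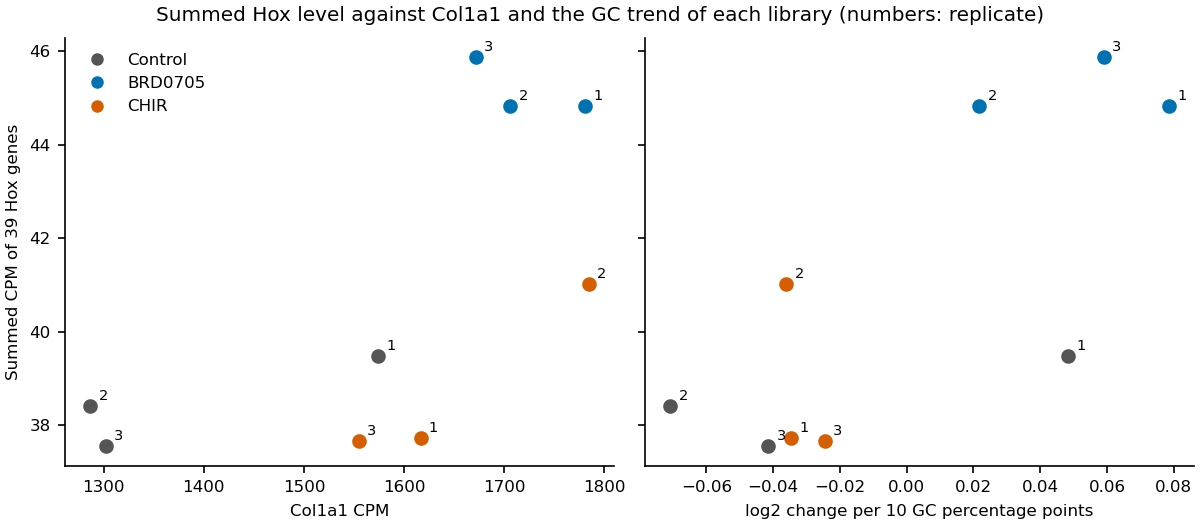
Summed CPM of the 39 Hox genes (vertical axis, not from 0) against Col1a1 CPM (left) and against the GC trend of the library in log2 units per 10 percentage points (right), one point per library, numbered by replicate. The r is 0.67 on the left and 0.77 on the right over 9 libraries; the 3 BRD0705 points lie at the top of both panels.

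Gene by gene, no Hox gene was shown to follow Col1a1. Pearson correlations of log2 CPM with Col1a1 over the 9 libraries were tested by exact permutation of the libraries, with Benjamini-Hochberg adjustment over all 15365 other tested genes. By this exact permutation test 0 of 28 Hox genes passed, and 0% of all other tested genes did. At an unadjusted p under 0.05 there were 2 Hox genes, Hoxc10 and Hoxa11, against 10.1% of all others. Hoxc10 had an r of 0.80 and a rho of 0.88 (exact permutation p 0.00253, adjusted 0.300), and r was 0.88 without the 2 libraries farthest from the median of Col1a1. Hoxa11, a limb and uterus gene, had an r of 0.77 and a rho of 0.63 (exact permutation p 0.0154, adjusted 0.390), with an r of 0.54 without those libraries. In deviations from the group means, which remove the differences between treatments, r was 0.55 for Hoxc10 and 0.74 for Hoxa11. With these deviations 0 Hox genes had an unadjusted exact permutation p under 0.05, against 4.52% of all other tested genes. The smallest p possible there is 0.00463.

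The r was above 0 in 17 of the 28 Hox genes, against 46.6% of all other tested genes, with a median of 0.19 against -0.04. It ran from -0.54 (Hoxa10) and -0.50 (Hoxd13) up to 0.80 (Hoxc10), with Hoxc6 at 0.62 and Hoxb9 at 0.64. The markers themselves did not pass either: Col5a1 had an r of 0.95 (exact permutation p 0.000389, adjusted 0.213) and Col1a2 0.84 (exact permutation p 0.00472, adjusted 0.326). The test over 9 libraries therefore does not separate a gene that follows Col1a1 from one that does not at this adjustment. The smallest p this design can give is 2.76e-06.

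The tested genes outside the clusters with at least 1 on the log2 CPM scale whose levels were most like the Hox sum were Ngfr (r 0.97), Zbtb7b (0.96), Ctc1 (0.96), Ski (0.96) and Cep170b (0.94) over the 9 libraries. Over all 15338 tested genes outside the clusters r ran from -0.98 to 0.97, so these high values are picked from many and were not tested. Ngfr, which encodes a neurotrophin receptor, averaged 131 CPM over Control, 168 over BRD0705 and 129.5 over CHIR libraries. Their transcripts had a GC content of 54.0 to 59.2%.

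Regulators and partners of Hox genes were expressed and mostly did not pass. The shares of all tested genes to read their counts against are 1.22% called with BRD0705, 6.3% with CHIR (3.78% lower) and 7.77% between the inhibitors, and 15.9%, 20.5% and 22.5% at an unadjusted p under 0.05. The 9 TALE homeodomain cofactors, which bind DNA together with Hox proteins, gave 0 calls against Control by edgeR (0 with BRD0705 and 1 with CHIR at an unadjusted p under 0.05), and of these Pknox2 passed between the inhibitors, higher with BRD0705 by 0.56 ± 0.13 log2 units (SE; edgeR adjusted p 0.0126). Of 17 Polycomb genes, which encode the repressors of the clusters, 0 passed with BRD0705 (3 at an unadjusted p under 0.05) and 2 fell with CHIR, Cbx2 by 0.22 on the log2 scale and Cbx7 by 0.19 (edgeR adjusted p 0.0268 and 0.0482). Between the inhibitors, Cbx2 and Cbx7 were higher with BRD0705 (0.37 and 0.28 on the log2 scale) and Mtf2 lower (-0.26). The 9 Trithorax and H3K27 demethylase genes, which counter Polycomb, gave 0 calls against Control (2 and 3 at an unadjusted p under 0.05), and Kdm6b was higher (0.27) and Wdr5 lower (-0.18) with BRD0705 than with CHIR. Among 10 tested genes of the retinoic acid response, a pathway that activates 3′ Hox genes, Rara rose with BRD0705 by 0.23 ± 0.05 log2 units (SE; edgeR adjusted p 0.0360).

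The caudal factors, direct activators of Hox genes, were low, at a mean of 0.762 CPM for Cdx1, 0.104 for Cdx2 and 0.0628 for Cdx4. Of the 5 listed caudal regulators 3 were tested, and 1 was called between the inhibitors, where 7.77% of all tested genes were. This was Gdf11, a ligand that turns on posterior Hox genes, higher with BRD0705 than with CHIR by 0.52 ± 0.16 log2 units (SE; edgeR adjusted p 0.0488). In that comparison Cdx1 was at 0.64 and Nr6a1, the list's most abundant gene (mean 35.1 CPM), at -0.13 (edgeR adjusted p 0.269 and 0.335). Of 15 noncoding and Evx genes of the clusters, 13 had a row and 1 was tested, Evx1, at 1.38 CPM and without a call. Hotair, a noncoding gene inside the Hoxc cluster between Hoxc11 and Hoxc12, had 0 counts in all 9 libraries.

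Other cell types were checked with their markers, to be read against the same shares of all tested genes. The 14 genes that mark body position in limb and trunk fibroblasts were all tested and gave 0 calls by edgeR in each comparison (0, 1 and 1 at an unadjusted p under 0.05 in the order above), with Tbx15 at 6.01 and Tbx4 at 3.65 CPM. Of 10 primitive streak and mesoderm markers 4 were tested and 0 passed in any comparison (1, 1 and 0 at an unadjusted p under 0.05), and the sum of the list was 14.1 to 18.2 CPM. The neural list gave 1 call against Control, Sox1, which fell by 0.76 on the log2 scale with CHIR (edgeR adjusted p 0.0203), while Neurog2 was at 0 in all libraries. The endoderm list had Cer1 and Ttr at 0 and gave 0 calls against Control (0 and 2 at an unadjusted p under 0.05). Between the inhibitors, Sox1 and the endoderm gene Sox7 were higher with BRD0705 (0.67 and 0.68 on the log2 scale). Of 8 trophoblast markers 7 were tested and 0 passed in any comparison (0, 1 and 0 at an unadjusted p under 0.05). Among the stem cell markers, Esrrb rose by 0.22 and Klf4 by 0.19 log2 units with CHIR (edgeR adjusted p 0.00734 and 0.0369) and 0 passed with BRD0705 (3 at an unadjusted p under 0.05). Esrrb, Klf4 and Tdgf1 were lower with BRD0705 than with CHIR (-0.15, -0.35 and -0.21 on the log2 scale, edgeR adjusted p 0.0474, 0.00066 and 0.0321). The part of these cell types in the Hox reads was not tested.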

How the data were processed

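RNA was sequenced from 9 libraries, grouped by the treatment label (3 each of Control, BRD0705 and CHIR). Per the labels' protocols ribosomal RNA was depleted by the kit, although polyA RNA is the molecule given. RSEM, DESeq2 and mm10 are named in the submitters' processing notes, without versions. Whether the whole-number counts are rounded RSEM estimates, which split reads between similar genes, and the annotation used are not given in the sources used here. The authors deposited raw counts per gene symbol (17359422 to 20773337 per library) and a normalized table, a signal equal to the counts divided by 1 factor per library to within 5.1e-10.

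The tests on counts used edgeR 4.0.16 (R 4.3.3): TMM, filterByExpr by group with a minimum count of 10, the quasi-likelihood F test with 9 libraries in one fit (6 residual degrees of freedom), 2-sided, Benjamini-Hochberg over 15366 genes, threshold 0.05. Log2 CPM used a prior count of 2. Correlations used exact permutation of 362880 orders (Python 3.11.15, SciPy 1.17.1). Exon length, GC content and sequences came from GENCODE vM39 on GRCm39, not stated to be the authors' annotation; GC content and length were matched for 97.6% of tested genes. The tests were also run on simulated data. For the correlation test the simulation held far fewer rows than the real table, so it does not show the power of that test here.

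The members and gene lists were chosen with earlier results of these data known. Named were the 12 tested Hox genes with the highest mean CPM (1 is not reported here), genes past the threshold and up to 4 of the most abundant genes of each list, Col1a1, and the 5 genes most like the Hox sum; Hoxd9, Hoxa5, Hoxc5, Hoxb7, Hoxd1, Hoxa10, Hoxa11 and single markers were named after their values were seen. Alternatives were DESeq2 1.42.0, limma 3.58.1 (voom, and on the deposited signal as log2(value + 1)), DESeq2-type factors, library size only, fitting the compared groups alone, no filter, a filter at mean CPM 1, a replicate block, the fibroblast score as a covariate, leaving out each library and, added after seeing the data, a correction for GC content and length.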

Additional observations from a re-analysis of the deposited data

How the results depend on the processing

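No alternative called a Hox gene in any of the 3 comparisons, over 20 alternatives for BRD0705 against Control and 21 for each of the others, leaving out each library included. The lowest adjusted p of a Hox gene was 0.101 for BRD0705, 0.145 for CHIR and 0.0686 between the inhibitors. DESeq2 gave no adjusted p for Hox genes in the first. No Hox gene passed the correlation with Col1a1 under its 8 alternatives, where 1 of all other tested genes passed with library size only and 2 after the GC and length correction. The r of the Hox sum was 0.43 with Col1a2 and 0.23 with Col3a1.

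The number of all tested genes called moved more. For BRD0705 against Control it was 188, and 477 with DESeq2, 609 with no filter, 0 with the fibroblast score as a covariate (1518 at an unadjusted p under 0.05) and 21 to 305 with 1 library left out, moving by over 1.5 times without any Control or BRD0705 library or CHIR replicate 2. For CHIR it was 968, and 299 with that covariate and 514 to 1070 with 1 library left out (over 1.5 times lower without Control replicate 2 or 3 or CHIR replicate 1 or 2). Between the inhibitors it was 1194, and 616 to 1313 with 1 library left out (over 1.5 times lower without replicate 1 or 2 of either inhibitor). With a replicate block the counts were 222, 973 and 1177, with 0 Hox genes each. Same-numbered libraries did not deviate together (mean r -0.0012 over 9 pairs). The counts thus showed no pairing by number, which does not tell whether such libraries were handled together.

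Some uncalled Hox genes changed sign. With the covariate, Hoxd13 was at 0.21 (-0.11 without the covariate) and Hoxd8 at -0.18 (0.20) on the log2 scale for BRD0705. For CHIR, Hoxc6 was at -0.018 (0.08), Hoxb9 at -0.23 (0.01), Hoxc8 at -0.0038 (0.10), Hoxc4 at 0.0040 (-0.32), Hoxb3 at -0.051 (0.23) and Hoxd8 at -0.093 (0.22). With library size only, Hoxb9 was at -0.012 for CHIR and Hoxd8 at 0.011 between the inhibitors. Col1a1 between the inhibitors was at -0.046 after the GC and length correction and at -0.045 with the block added. With 1 library left out, BRD0705 against Control ran from -0.25 to 0.18 for Hoxa7, -0.19 to 0.026 for Hoxd13, -0.094 to 0.21 for Hoxc9 and -0.015 to 0.43 for Hoxd8. CHIR against Control ran from -0.026 to 0.15 for Hoxc6, -0.10 to 0.13 for Hoxb9, -0.26 to 0.29 for Hoxc8, -0.29 to 0.23 for Hoxa7, -0.10 to 0.18 for Hoxd13, -0.081 to 0.40 for Hoxb3 and -0.059 to 0.42 for Hoxd8. BRD0705 against CHIR ran from -0.24 to 0.27 for Hoxd8, -0.12 to 0.44 for Hoxc8, -0.17 to 0.19 for Hoxa7 and -0.057 to 0.47 for Hoxb3. The median Hox change for BRD0705 was 0.12 with the covariate, and for CHIR -0.05 without CHIR replicate 2. Col1a1 lost its call for BRD0705 with the covariate, the GC correction or without any of 4 libraries (Control replicates 2 and 3, BRD0705 replicates 1 and 2). For CHIR it lost it with the covariate, with library size only or without any of 4 libraries (Control replicates 2 and 3, CHIR replicates 1 and 2). The fibroblast score contains Col1a1, so a call lost with that covariate is partly fixed in advance and is no check of Col1a1. The cause was not tested. The ratio of the Hox sum, BRD0705 over Control, ran from 1.15 to 1.19. The ratio for CHIR over Control ran from 0.980 to 1.02, on both sides of 1.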
